A study of Homo sapiens with 16 samples.

Results

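The genes described here are 10 members of the NOTCH pathway, taken by symbol from a table of 57820 genes: the receptors NOTCH1, NOTCH2 and NOTCH3, the DNA-binding protein RBPJ, and the genes HES1, HES4, HEY1, DTX1, NRARP and TRIB2. All 10 symbols were found. They were measured in 16 RNA-sequencing libraries of 3 human leukaemia lines of the acute T-lymphoblastic kind (T-ALL), CUTLL1, KOPTK1 and HPB-ALL, in which the long non-coding RNA lnrCXCR4 had been targeted. The question of the series is how the transcriptome changes when that RNA is disturbed.

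NOTCH receptors are cleaved after they bind a ligand on a neighbouring cell, and the freed intracellular part enters the nucleus, joins RBPJ and coactivators of the MAML family, and switches on genes at RBPJ sites. HES and HEY genes encode repressors of transcription, NRARP destabilises the nuclear complex, and DTX1 is a ubiquitin ligase that acts on NOTCH, so several targets feed back on the pathway. Activating changes of NOTCH1 are common in T-ALL, and CUTLL1 is known for a translocation that joins NOTCH1 to the T-cell receptor beta locus, while KOPTK1 and HPB-ALL carry activating NOTCH1 mutations. Counts per gene cannot separate a truncated NOTCH1 transcript from a whole one.

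In CUTLL1, KOPTK1 and HPB-ALL the RNA was targeted with lentivirus carrying CRISPR guides, against a non-targeting guide. In CUTLL1 and KOPTK1 it was also targeted with antisense oligonucleotides (ASOs) at 1 uM in the medium, against a scrambled ASO. These 5 experiments each had 2 targeted libraries, and the control was 1 library in each except HPB-ALL, which had 2. Titles number the targeted libraries as guide or ASO 1 and 2, whereas their descriptions number them as replicates, and no label says that they came from separate cultures. The 2 targeted libraries of each experiment were fitted as replicates. The p-values below therefore measure spread that may be technical only, or that may lie between different guides or different ASOs. A lone control was assumed to vary like the other groups.

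Library totals ran from 34547469 to 72178929 recovered reads. The level of lnrCXCR4 was not analysed here (0 entries of the table matched its name). All 10 listed T-lineage markers reached a mean of 20, and their summed normalised count was 131406 to 144536 in the controls and 57249 to 74782 in the targeted libraries. The mitochondrial share of counts was 1.84% to 2.48% in the controls and 2.46% to 3.25% in the targeted libraries. 0 of 6 myeloid and 0 of 5 erythroid markers reached a mean of 20. Of 6 B-lineage markers 2 reached it, with sums of 352 to 2667 in the controls and 151 to 573 in the targeted libraries, and MS4A1, a defining B-cell marker, was at 0 in 15 libraries. Of 6 epithelial and fibroblast markers 2 reached it, CDH1 and COL1A1. The sums over all 6 were 213 and 247 in the HPB-ALL controls against 26.1 and 27.1 with guides, and 11.7 to 59.2 in 11 of the 12 CUTLL1 and KOPTK1 libraries. The other one, KOPTK1 guide 1, stood apart at 703, with the collagen genes COL1A1 at 426 and COL1A2 at 276. The part of these shifts in the results below was not tested. In bulk RNA, fewer cells of a type and less RNA per cell cannot be told apart. The mean chi-square per gene was 2.34 to 6.75 between the targeted pairs and the HPB-ALL controls, and 1.73 to 14.5 between a guide library and an ASO library of the same line and arm, where 1 means counting noise alone. The lowest, 1.73, was between CUTLL1 guide 1 and ASO 1, under the 3.74 between its guides and the 2.34 between its ASOs. The highest, 14.5, was between KOPTK1 guide 2 and ASO 1, above the 6.75 between its guides and the 4.10 between its ASOs. Libraries were thus not always most alike within 1 kind of targeting. No pair of libraries was thus as alike as a library deposited again would be.

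The promoter sequences of HES1, HES4 and NRARP are shown because these 3 NOTCH targets moved differently from each other. RefSeq windows (GRCh38.p14) were found for 8 of the 10 members, all but DTX1 and HEY1. Each sequence is the 250 bases before the transcription start, 5′ to 3′ on the gene's strand, with the letters TGGGAA, the core that RBPJ reads, in capitals wherever they or their reverse complement TTCCCA occur. HES1 lies at chr3:194135898-194136147 on the plus strand, HES4 at chr1:1000098-1000347 on the minus strand and NRARP at chr9:137302272-137302521 on the minus strand.
HES1: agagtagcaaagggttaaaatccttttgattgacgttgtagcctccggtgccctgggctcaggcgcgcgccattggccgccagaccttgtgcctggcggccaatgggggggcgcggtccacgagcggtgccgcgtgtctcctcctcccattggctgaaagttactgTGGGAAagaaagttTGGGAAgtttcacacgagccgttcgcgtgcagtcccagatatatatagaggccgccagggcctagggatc
HES4: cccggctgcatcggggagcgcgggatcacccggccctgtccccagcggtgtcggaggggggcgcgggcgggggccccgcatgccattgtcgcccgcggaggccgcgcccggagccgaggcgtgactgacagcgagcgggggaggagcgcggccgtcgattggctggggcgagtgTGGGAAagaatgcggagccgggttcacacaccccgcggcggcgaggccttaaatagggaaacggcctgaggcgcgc
NRARP: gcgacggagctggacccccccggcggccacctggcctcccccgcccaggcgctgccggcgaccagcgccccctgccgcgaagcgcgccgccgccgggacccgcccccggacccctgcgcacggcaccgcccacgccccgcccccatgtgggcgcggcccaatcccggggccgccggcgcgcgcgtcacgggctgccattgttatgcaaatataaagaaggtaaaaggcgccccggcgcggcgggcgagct
HES1 has 2 matches, 84 to 79 and 70 to 65 bases before its start, both in the orientation of the gene. HES4 has 1 match, 76 to 71 bases before its start. The NRARP window has 0 matches, which says only that these letters are not in this window. Bases just after the stated start were found in an annotated transcript of HES1 and of HES4, but not of NRARP. The start used for NRARP was thus not borne out in this way. Only these exact letters were searched, so RBPJ sites of another spelling were not counted in any window. A link between the number of matches and the changes below was not tested. Over all 35116 promoter windows of the table, 20.8% hold at least 1 match and 2.9% hold 2 or more. Among the members searched, the only other one with a match is RBPJ itself, in 1 of its 5 windows.

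With a non-targeting guide or a scrambled ASO, the 3 lines differed in every member that could be tested. Control means are over 1 guide and 1 ASO control in CUTLL1 and KOPTK1, and over 2 guide controls in HPB-ALL. Counts per kilobase of exon allow genes to be compared roughly with each other, using exon lengths from a GENCODE annotation. Each length merges all annotated exons of a gene, so it can exceed that of the transcript present. In the controls, DTX1 had the highest level of the members in all 3 lines, at 3635, 4419 and 5536 normalised counts per kb in CUTLL1, KOPTK1 and HPB-ALL. In CUTLL1 the control libraries of HES4, at a mean of 3576 per kb, overlapped those of DTX1. NOTCH1 was at 2551, 1736 and 3205 per kb and NOTCH3 at 2387, 684 and 1878 per kb. NOTCH2 was the lowest of the 3 member receptors per kb in every line, at 283, 360 and 1051. In HPB-ALL its mean control count, 17660, was close to the 17640 of NOTCH3. The order of these genes there thus rests on the exon lengths, 16807 and 9394 bases. HES1 was at 1240, 276 and 461 per kb and RBPJ at 340, 459 and 555 per kb. All of these are levels, not changes.

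Among control libraries, every tested member differed between lines by limma's F test on log2(normalised count + 1) (9 of 9 with a Benjamini-Hochberg adjusted p under 0.05, as did 92.7% of all genes tested, so the members are near the background). NRARP showed the widest range: 2229 and 2289 normalised counts in the guide and ASO controls of CUTLL1, 79.3 and 67.6 in the HPB-ALL controls, and 2.9 and 0 in the KOPTK1 controls. CUTLL1 was thus 30.8-fold above HPB-ALL, and KOPTK1 lay at 3 reads or fewer. NOTCH2, in contrast, was highest in HPB-ALL (18268 and 17053) and lower in KOPTK1 (6313 and 5784) and CUTLL1 (4808 and 4699), a log2 difference of 1.89 between HPB-ALL and CUTLL1. HES1 and HES4 were highest in CUTLL1 and lowest in KOPTK1. The control log2 difference of KOPTK1 from CUTLL1 was -2.17 (SE 0.042) for HES1 and -2.71 (SE 0.075) for HES4. TRIB2, which encodes a pseudokinase of the tribbles family and is a NOTCH1 target in T-ALL, ran the other way for KOPTK1, at 3914 and 3945 there against 2055 and 2210 in CUTLL1 and 1460 and 1399 in HPB-ALL. Neighbouring lines in these orders did not overlap, with 2 controls per line. The share of all genes without such overlap was not counted, so this is not a trait particular to the members.

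**Figure D1:**
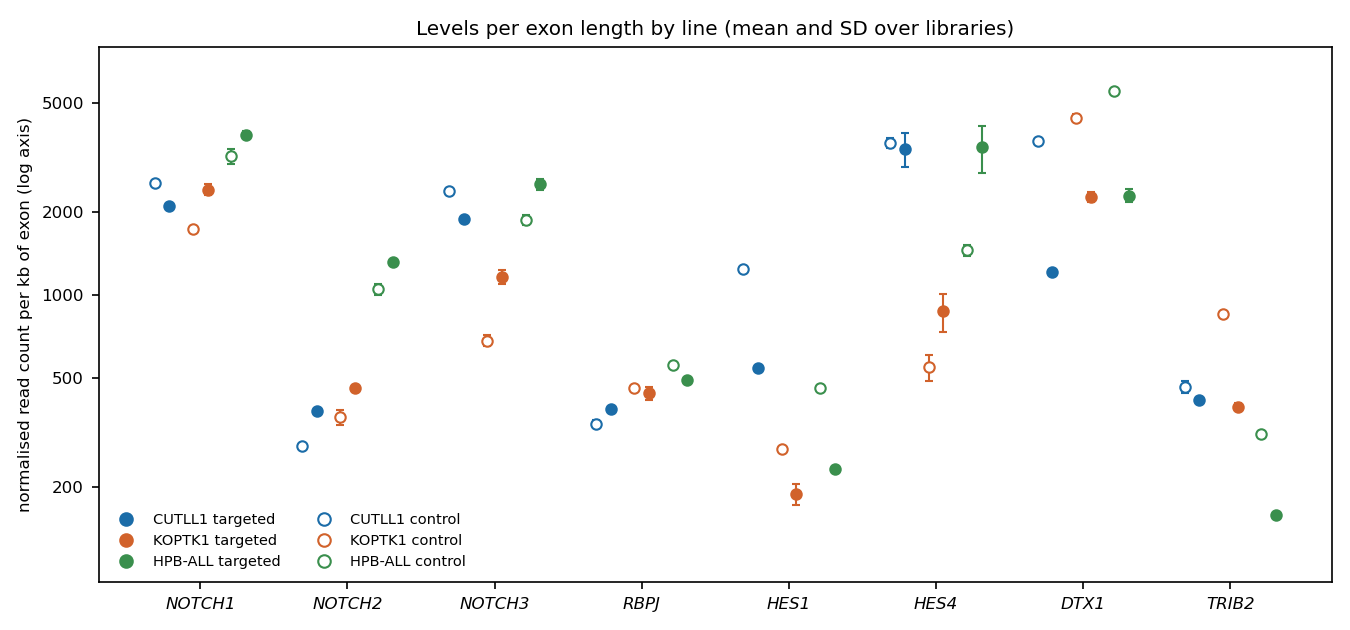
Normalised count per kb of exon (log axis) for 8 members in each line, open symbols for controls and filled symbols for targeted libraries, as mean and SD over libraries (2 controls, and 4 targeted libraries in CUTLL1 and KOPTK1 or 2 in HPB-ALL; guide and ASO libraries are pooled). DTX1 controls sit at 3635 to 5536 per kb, and all DTX1 targeted means lie lower; NRARP and HEY1 are not drawn, since they are near 0 in some lines.

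With lnrCXCR4 targeted, DTX1 and HES1 fell in all 5 experiments and NOTCH2 rose in all 5, while NOTCH1 and NOTCH3 fell in CUTLL1 and rose in KOPTK1 and HPB-ALL. In the guide comparison over 10 libraries, 2 of 9 tested members rose and 4 fell (limma, adjusted p under 0.05), while of all genes tested 32.7% rose and 35% fell, or 67.7% together. In the ASO comparison over 6 libraries, 1 rose and 3 fell, against 31.8% and 33.2% of all genes (65% together). In the joint comparison 2 rose and 4 fell, against 36.2% and 38.8% (75% together). Within single experiments, the members past the threshold in either direction were 7 of 9 in CUTLL1 with guides (62.3% of all genes), 7 with ASOs (62.3%), 7 in KOPTK1 with guides (64.1%, and counting NRARP at 3 reads or fewer), 7 with ASOs (63.4%) and 8 in HPB-ALL (70.9%). The members' median log2 fold change was -0.017 in the guide comparison and 0.0086 in the ASO comparison, beside -0.027 and -0.015 over all genes. With 9 members tested, these shares are near the background, so the members are described one by one. HEY1 was tested nowhere, since its mean stayed under 20.

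NOTCH1, the receptor most often activated in T-ALL, moved in opposite directions in different lines. In CUTLL1 its normalised count was 26184 in the guide control and 21738 and 21571 with guides 1 and 2, and 26751 in the ASO control and 22201 and 22295 with ASOs 1 and 2. In KOPTK1 it was 18394 in the guide control against 23747 and 24675, and 17627 in the ASO control against 25913 and 26157. HPB-ALL had 34707 and 31801 in its controls and 40624 and 39041 with guides. All 4 targeted CUTLL1 libraries were below, and all 6 targeted KOPTK1 and HPB-ALL libraries above, the controls of their own experiment. The share of all genes split this way was not counted. The log2 fold change was -0.27 (SE 0.048; adjusted p = 0.000383) in CUTLL1 with guides, 0.40 (adjusted p = 2.05e-05) in KOPTK1 with guides and 0.26 (adjusted p = 8.37e-05) in HPB-ALL, by limma. ASOs gave -0.27 (adjusted p = 0.00049) in CUTLL1 and 0.56 (adjusted p = 1.18e-06) in KOPTK1. Pooled over lines, NOTCH1 did not pass: 0.15 with guides (adjusted p = 0.196) and 0.15 with ASOs (adjusted p = 0.46).

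NOTCH3, a receptor that is itself a NOTCH1 target in T-ALL, had the same signs with larger changes in KOPTK1. CUTLL1 counted 21978 in the guide control and 17634 and 17504 with guides, and 22862 in the ASO control and 18034 and 18036 with ASOs. KOPTK1 started much lower, at 6628 in the guide control against 10249 and 10665, and at 6215 in the ASO control against 11366 and 11533. HPB-ALL had 18160 and 17121 in the controls against 24598 and 23078. Targeting left CUTLL1 with 79.9% and 78.9% of its control level and KOPTK1 with 157.8% and 184.2%, for guides and ASOs in that order, and HPB-ALL with 135.1%. Control and targeted libraries did not overlap in any experiment. That is common here: all 10 targeted libraries lay above their own controls for 27.9% of all genes and below them for 28.8%. The share with the split seen for NOTCH3 was not counted. The log2 fold changes were -0.32 and -0.34 in CUTLL1 (guides, then ASOs), 0.66 and 0.88 in KOPTK1 and 0.43 in HPB-ALL, with SEs of 0.037 to 0.045 and limma adjusted p of at most 7.24e-05. The pooled values again did not pass, at 0.28 (adjusted p = 0.0851) with guides and 0.27 (adjusted p = 0.362) with ASOs.

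A pooled value of NOTCH1 or NOTCH3 depended on which line's control was in the fit. Leaving out a lone control removes the contrast of that line. Without the CUTLL1 guide control the guide values were 0.32 for NOTCH1 and 0.52 for NOTCH3, both past the threshold (limma adjusted p = 0.00028 and 3.69e-05). In the ASO comparison they were 0.56 and 0.88 without the CUTLL1 control, and -0.27 and -0.34 without the KOPTK1 control. The difference between lines was itself tested: KOPTK1 minus CUTLL1 in the guide effect was 0.67 (SE 0.068; adjusted p = 8.58e-05) for NOTCH1 and 0.98 (SE 0.064; adjusted p = 3.60e-06) for NOTCH3. HPB-ALL minus KOPTK1 was -0.13 for NOTCH1, which did not pass (adjusted p = 0.119; 95% interval -0.27 to 0.0012), and -0.22 for NOTCH3, which did (adjusted p = 0.0129). The former passed without HPB-ALL control 2 (-0.20; adjusted p = 0.0177), and the latter did not after quantile scaling (-0.15; adjusted p = 0.0729).

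The pattern of a fall in both CUTLL1 experiments and a rise in both KOPTK1 experiments and in HPB-ALL was looked for over all genes after the values of NOTCH1 and NOTCH3 had been seen. It was met by 16 of 14020 genes tested, or 0.114%, and NOTCH1 and NOTCH3 are 2 of these 16. Since the pattern was chosen for these members, their presence among the 16 is a description with no test. The reverse pattern was met by 25 genes, or 0.178%. Among the other genes of the 16 are INSR, the insulin receptor, PFKFB3, a glycolysis enzyme, and HSPA8, a heat shock protein.

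NOTCH2, a receptor whose level was highest in HPB-ALL, moved one way. CUTLL1 had 4808 in the guide control and 6243 and 6528 with guides, and 4699 in the ASO control and 6375 and 6327 with ASOs. KOPTK1 had 6313 against 7395 and 7896 with guides, and 5784 against 7771 and 7694 with ASOs. HPB-ALL had 18268 and 17053 in the controls against 21990 and 22496. All 10 targeted libraries lay above their own controls, as they did for 27.9% of all genes. The joint log2 fold change was 0.37 (SE 0.027; limma adjusted p = 2.05e-08), with 0.34 for guides and 0.43 for ASOs, and NOTCH2 passed upward in all 5 single experiments, as did 19.8% of all genes. Its guide effect was not shown to differ between lines (F = 1.85; adjusted p = 0.291). NOTCH2NL, a near-identical copy of the start of NOTCH2, was at 135 to 404 normalised counts over the 16 libraries, and reads may have been split between the copies.

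**Figure D2:**
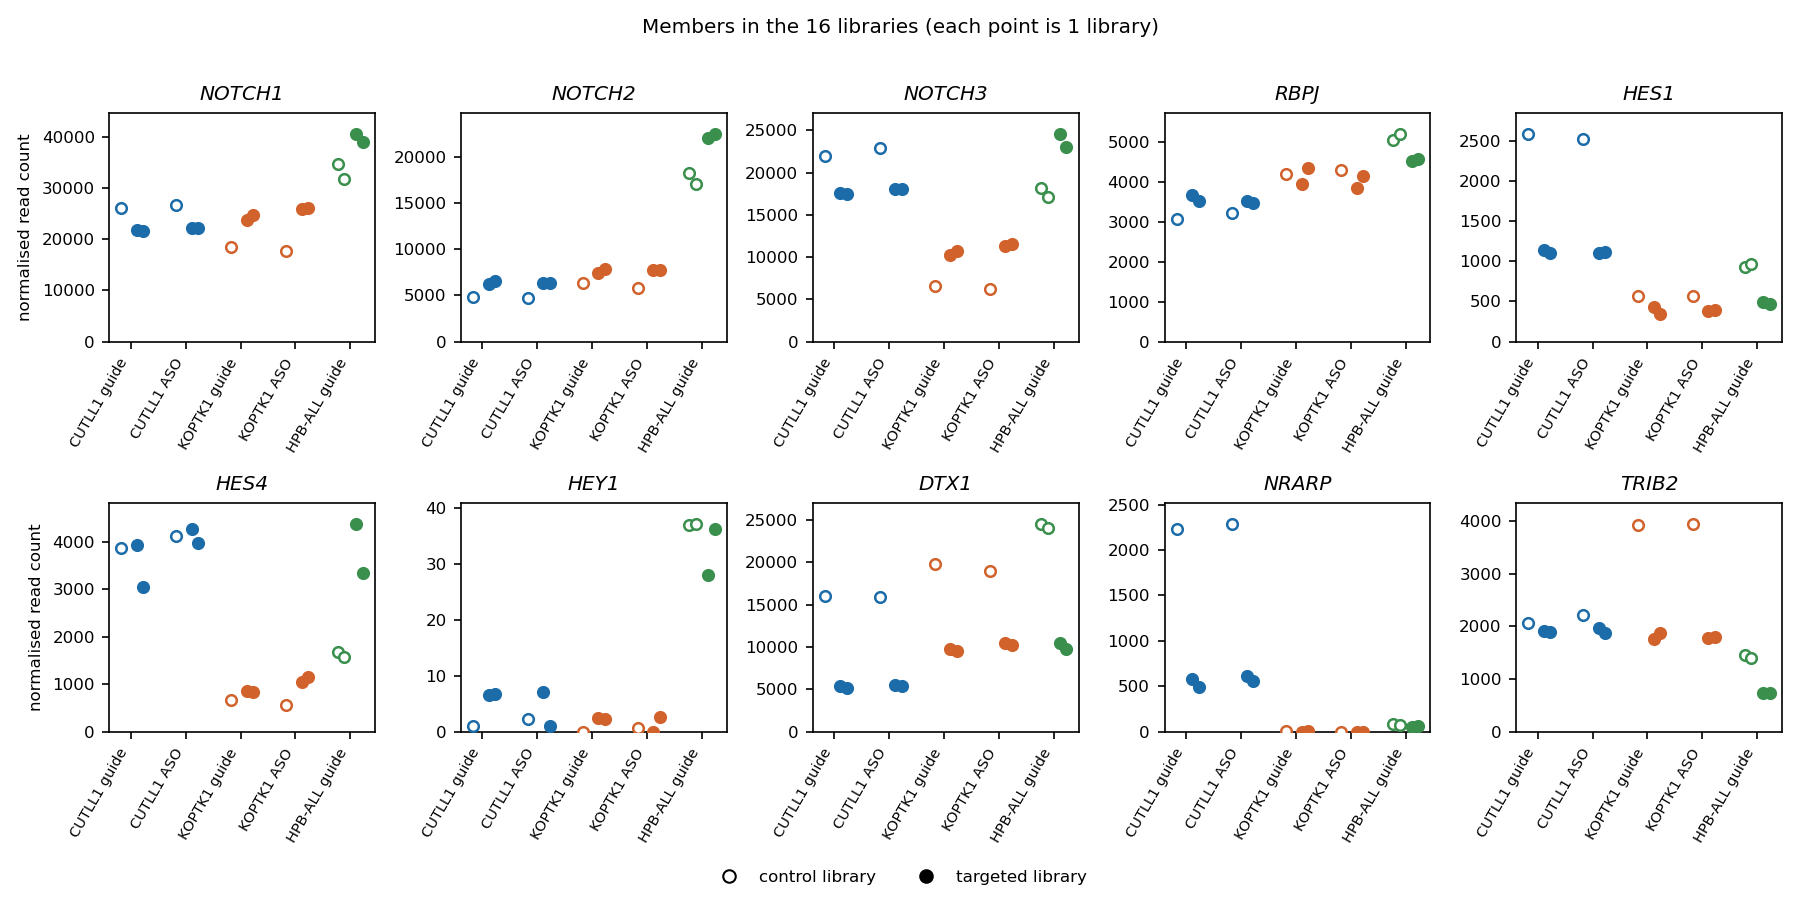
Normalised count of each member in each of the 16 libraries, by experiment, with controls as open and targeted libraries as filled symbols; the vertical axes differ between panels. NOTCH1 and NOTCH3 targeted libraries lie below their controls in CUTLL1 and above them in KOPTK1 and HPB-ALL, NOTCH2 libraries lie above in all 5 experiments, and DTX1 and HES1 libraries lie below in all 5.

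RBPJ, the DNA-binding partner of the cleaved receptors, moved in different directions by small amounts. Its normalised count was 3080 in the CUTLL1 guide control and 3667 and 3525 with guides, and 5063 and 5210 in the HPB-ALL controls and 4530 and 4576 with guides. In KOPTK1 the guide control, at 4208, lay between the targeted libraries at 3950 and 4350. The ASO controls were at 3219 in CUTLL1, below the targeted 3527 and 3472, and at 4292 in KOPTK1, above the targeted 3840 and 4157. RBPJ rose in CUTLL1 with guides (0.22; limma adjusted p = 0.00679) and fell in HPB-ALL (-0.17; adjusted p = 0.00739), the latter a call lost without HPB-ALL control 2 (-0.15; adjusted p = 0.0534). With ASOs the values were 0.12 in CUTLL1 (adjusted p = 0.101) and -0.10 in KOPTK1 (adjusted p = 0.154), neither past the threshold. The RBPJ pseudogenes listed in the table were at 0 in all libraries.

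HES1, the repressor that is the best known direct target of NOTCH, was lower in every targeted library than in its controls. CUTLL1 had 2591 in the guide control and 1144 and 1106 with guides, and 2521 in the ASO control and 1108 and 1114 with ASOs. KOPTK1 had 567 against 432 and 349 with guides, and 571 against 386 and 394 with ASOs. HPB-ALL had 936 and 965 in its controls against 490 and 473. The targeted level was 43.4% (guides) and 44.1% (ASOs) of control in CUTLL1, 50.7% in HPB-ALL, and 68.9% and 68.3% in KOPTK1, where the control level was lowest. The joint log2 fold change was -0.90 (SE 0.088; limma adjusted p = 3.79e-07), and the single experiments ran from -1.20 in CUTLL1 with guides to -0.54 in KOPTK1 with guides. All 5 passed, as did a fall in all 5 for 20.8% of all genes, but the KOPTK1 guide value was -0.22 and did not pass after quantile scaling (adjusted p = 0.0767). The guide effect on HES1 differed between lines, with KOPTK1 minus CUTLL1 at 0.66 (SE 0.15; adjusted p = 0.0113).

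HES4, another repressor of the same family, did not follow HES1. In HPB-ALL it was at 1676 and 1576 in the controls and 4385 and 3336 with guides, and in KOPTK1 at 565 in the ASO control and 1052 and 1161 with ASOs. The KOPTK1 guide libraries, at 855 and 840, also lay above their control at 658. CUTLL1 overlapped: 3875 in the guide control against 3928 and 3046, and 4120 in the ASO control against 4272 and 3989. HES4 rose in HPB-ALL (1.23, SE 0.13; limma adjusted p = 3.49e-06) and in KOPTK1 with ASOs (0.97; adjusted p = 0.0002), to 237.4% and 195.7% of control. With guides in KOPTK1 it was 0.36 (adjusted p = 0.0583), a value that passed with a pseudocount of 5 (adjusted p = 0.043), after quantile scaling (0.55; adjusted p = 0.00818), and without guide 1 or 2 of CUTLL1 or of HPB-ALL, which share the estimate of spread (adjusted p of 0.0245 to 0.0316). In CUTLL1 it was -0.16 with guides and 0.0027 with ASOs (adjusted p = 0.384 and 0.997). HPB-ALL minus KOPTK1 in the guide effect was 0.87 (SE 0.20; adjusted p = 0.00651).

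Pooled over lines with guides, HES4 passed at 0.59 (SE 0.21; limma adjusted p = 0.0338), and that call was lost on leaving out any 1 of 5 libraries. The value was 0.60 without KOPTK1 guide 1 (adjusted p = 0.0519), 0.49 and 0.46 without HPB-ALL control 1 or 2 (adjusted p = 0.0873 and 0.0902), and 0.41 and 0.54 without HPB-ALL guide 1 or 2 (adjusted p = 0.0793 and 0.0782). With ASOs it did not pass (0.48; adjusted p = 0.0699), and it did without the CUTLL1 ASO control (0.97). The joint value was 0.55 (adjusted p = 0.00775).

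HEY1, a HES-related repressor, was at the edge of detection. HPB-ALL held 28 and 39 reads in its controls and 35 and 47 with guides, or 37.0 and 37.1 against 27.9 and 36.1 normalised counts. In CUTLL1 it had 1 and 2 reads in the controls and 1 to 7 in the targeted libraries, and in KOPTK1 no library had more than 2 reads. No fold is given for CUTLL1 or KOPTK1, where the controls are at or under 3 reads.

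**Figure D3:**
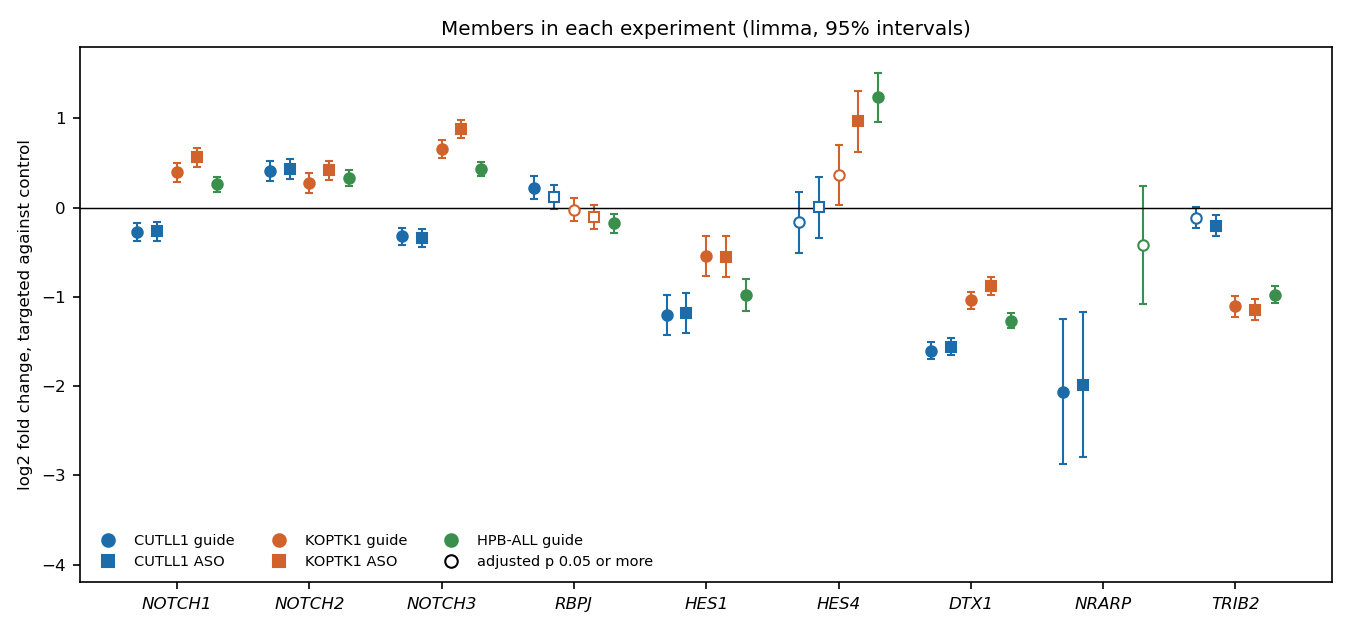
Log2 fold change of targeted against control libraries for 9 members in each experiment (circles for guides, squares for ASOs, bars for 95% limma intervals, open symbols for an adjusted p of 0.05 or more). DTX1 and HES1 lie under 0 throughout, NOTCH2 lies above 0 throughout, and NOTCH1 and NOTCH3 cross 0 between CUTLL1 and the other lines; NRARP is not drawn for KOPTK1, where it is at 3 reads or fewer.

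DTX1, the ubiquitin ligase, had the highest mean level per kb of the members in the controls and fell in every experiment. CUTLL1 dropped from 15987 in the guide control to 5372 and 5163 with guides, and from 15908 in the ASO control to 5462 and 5349 with ASOs. KOPTK1 dropped from 19792 to 9759 and 9497 with guides, and from 18985 to 10416 and 10225 with ASOs. HPB-ALL dropped from 24552 and 24023 to 10479 and 9728. Targeted libraries kept 32.9% (guides) and 34.0% (ASOs) of control in CUTLL1, 48.6% and 54.4% in KOPTK1 and 41.6% in HPB-ALL, with no overlap anywhere. All 10 targeted libraries were below their own controls for DTX1, HES1 and TRIB2, as they were for 28.8% of all genes. The joint log2 fold change of DTX1 was -1.27 (SE 0.076; limma adjusted p = 2.39e-09), and over every alternative of the joint comparison it stayed between -1.45 and -1.19. The order of the lines held up in the test: KOPTK1 minus CUTLL1 in the guide effect was 0.56 (adjusted p = 0.000205) and HPB-ALL minus KOPTK1 was -0.23 (adjusted p = 0.0115).

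NRARP, the feedback inhibitor of the nuclear complex, could be read in CUTLL1 and HPB-ALL only. In CUTLL1 it dropped from 2229 to 583 and 488 with guides and from 2289 to 607 and 551 with ASOs, or to 24.0% and 25.3% of control. These were the lowest percentages of any member above the 3-read floor, with log2 fold changes of -2.06 (SE 0.37; limma adjusted p = 0.000456) and -1.98 (SE 0.37; adjusted p = 0.000619). In HPB-ALL the controls had 79.3 and 67.6 and the targeted libraries 52.7 and 56.1. Controls and targeted libraries did not overlap, and the share of all genes without overlap in HPB-ALL was not counted. The log2 fold change of -0.42 did not pass (limma adjusted p = 0.23, 95% interval -1.08 to 0.24). It did pass with a pseudocount of 5 (-0.40, adjusted p = 0.0375). HPB-ALL minus CUTLL1 in the guide effect was 1.64 (SE 0.48; adjusted p = 0.021), a call lost without CUTLL1 guide 2, HPB-ALL control 2 or HPB-ALL guide 2 (adjusted p of 0.0522 to 0.0677). In KOPTK1 the reads were 3, 0 and 1 in the guide control and guides 1 and 2, and 0 in all 3 ASO libraries, so no fold is given, and pooled values of NRARP, which include KOPTK1, depend on the pseudocount. Those values were -1.17 with guides (adjusted p = 0.00729) and -0.99 with ASOs, which did not pass (adjusted p = 0.0902) and did without the KOPTK1 ASO control (-1.98). Without the KOPTK1 libraries, a setting added after the data were seen, the guide value was -1.08 (adjusted p = 0.0213).

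TRIB2 divided the lines in another way. KOPTK1 dropped from 3914 in the guide control to 1762 and 1878 with guides and from 3945 in the ASO control to 1769 and 1802 with ASOs, and HPB-ALL from 1460 and 1399 to 728 and 726. In CUTLL1 the difference was smaller, 2055 against 1903 and 1890 with guides and 2210 against 1969 and 1876 with ASOs. Targeted KOPTK1 libraries kept 46.5% and 45.3% of control and HPB-ALL 50.8%, against 92.3% and 87.0% in CUTLL1. The log2 fold change was -1.10 and -1.14 in KOPTK1 and -0.97 in HPB-ALL (limma adjusted p of at most 1.35e-08), and in CUTLL1 -0.12 with guides (adjusted p = 0.0802) and -0.20 with ASOs (adjusted p = 0.00633). KOPTK1 minus CUTLL1 in the guide effect was -0.99 (SE 0.075; adjusted p = 1.18e-05). The pooled ASO value, -0.67 (adjusted p = 0.0193), did not pass without KOPTK1 ASO 1 (-0.60; adjusted p = 0.0588) or ASO 2 (-0.61; adjusted p = 0.0585), and with the replicate block it was -0.66 (adjusted p = 0.0662).

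The size of the guide effect differed between the 3 lines for 8 of 9 tested members by the F test, all but NOTCH2, against 43.7% of all genes. Of these calls, that of NRARP (F = 6.25; adjusted p = 0.0382) was lost after quantile scaling (adjusted p = 0.0514) and without any 1 of 8 libraries of CUTLL1 or HPB-ALL (adjusted p of 0.0579 to 0.11). Pairwise, 5 members passed for KOPTK1 minus CUTLL1 (16.1% of all genes), 7 for HPB-ALL minus CUTLL1 (33.7%) and 4 for HPB-ALL minus KOPTK1 (33.7%). In CUTLL1 a fall of HES1, DTX1 and NRARP stood beside a fall of NOTCH1 and NOTCH3 and a rise of NOTCH2. TRIB2 passed downward in CUTLL1 with ASOs only (-0.20). In KOPTK1 and HPB-ALL a fall of HES1, DTX1 and TRIB2 stood beside a rise of all 3 receptors. HES4, also a target, went the other way, rising in HPB-ALL (1.23) and in KOPTK1 with ASOs (0.97). It did not pass with guides in KOPTK1 (0.36) or in CUTLL1.

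Guides and ASOs were compared in CUTLL1 and KOPTK1. For 0 of 9 members, and for 0% of all genes, did the guide effect differ from the ASO effect by limma at an adjusted p under 0.05, while 3 members (NOTCH3, HES4 and DTX1) and 1393 of 14020 genes had an unadjusted p under 0.05. No count test was run for this difference. The difference was -0.10 for DTX1 (95% interval -0.20 to -0.0033), -0.10 for NOTCH3 (-0.20 to -0.0026) and -0.0091 for HES1 (-0.23 to 0.22). HES4 had a wide interval, from -0.72 to -0.043. A missed threshold does not show that the 2 kinds of targeting acted alike.

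Other genes of the pathway were taken from a list of 69, of which 67 were in the table and 60 could be tested. In the joint comparison 17 rose and 30 fell (limma, adjusted p under 0.05), against 36.2% and 38.8% of all genes, with a median log2 fold change of -0.13 beside -0.026 over all genes. Of 12 tested T-cell targets outside the members, 12 fell and 0 rose (11 and 0 with guides or with ASOs alone). Their joint median was -0.74. The list was chosen with earlier results of these data known, so this count is a description with no test. MYC, the oncogene that NOTCH1 activates in T-ALL, fell by 2.12 on the log2 scale (adjusted p = 1.23e-09), and IL7R, the interleukin-7 receptor chain, fell by 2.54. In the same comparison the target genes among the members were at -0.90 (HES1), -1.27 (DTX1), -1.11 (NRARP), -0.73 (TRIB2) and 0.55 (HES4).

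Of the ligands, 0 of 3 tested rose and 1 fell, a count that changed with the processing. DLL3 fell at -0.90 (limma adjusted p = 0.0222), with 0 to 2.6 normalised counts in HPB-ALL and 39.8 to 193 in the other lines. It did not pass after quantile scaling (-0.47; adjusted p = 0.276), with the replicate block (adjusted p = 0.0686), without the KOPTK1 libraries (adjusted p = 0.181), or without the guide or ASO control of CUTLL1 or KOPTK1 (-0.87 to -0.67). DLL1 was at 0.29 (limma adjusted p = 0.263) and passed upward after quantile scaling (0.67; adjusted p = 0.0149), by edgeR (adjusted p = 0.0191), without the KOPTK1 libraries (adjusted p = 0.0185) and on omitting ASO 2 of KOPTK1 (0.43). NOTCH4, the receptor outside the members, had 1.2 to 119.8 normalised counts and fell (-1.94; limma adjusted p = 2.07e-05). The cleavage machinery was split, with 3 of 8 tested genes up and 3 down. APH1B, which encodes a component of the receptor-cleaving protease, fell (-0.85; limma adjusted p = 3.48e-08). Among 5 enzymes that add sugars to the receptors, 1 rose and 4 fell, including RFNG (-0.67) and POGLUT1 (-0.51).

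Nuclear partners were split as well. Of 8 coactivators 3 rose and 4 fell: the acetyltransferase EP300 rose by 0.37 (limma adjusted p = 1.36e-09), and the acetyltransferase KAT2A was at -1.46 (adjusted p = 8.45e-10). Of 10 corepressors 3 rose and 3 fell, KDM5A, a histone demethylase, by 0.39 and TLE3, a Groucho-family corepressor, by -0.99. Trafficking and degradation genes rose in 6 of 11 cases and fell in 2. Those 2 were relatives of DTX1: DTX3 (-1.84) and DTX3L (-1.47), for which all 10 targeted libraries were below their controls. HES6, a HES relative, was at 0.95 (adjusted p = 0.000499).

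**Figure D4:**
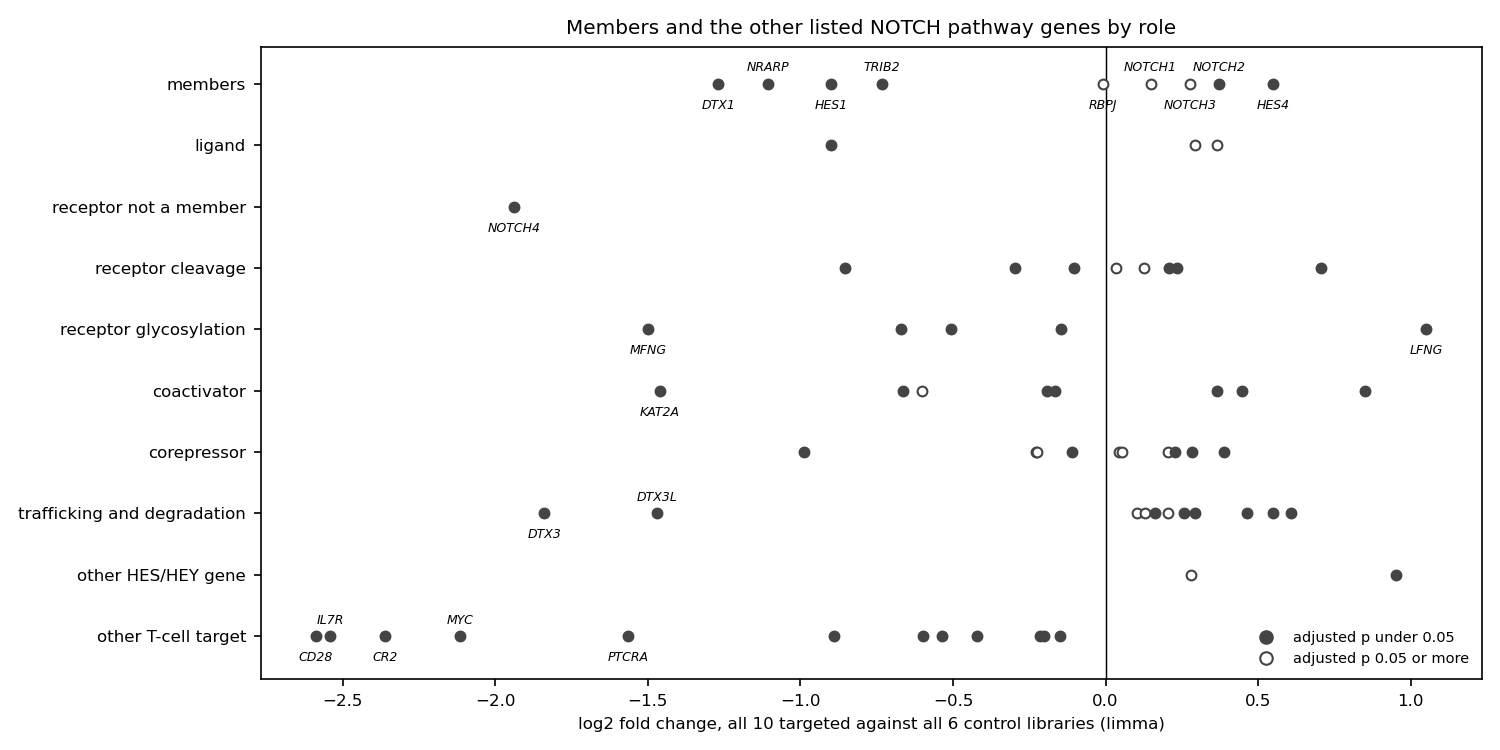
Joint log2 fold change (limma, 16 libraries) of the tested members and of the listed pathway genes, arranged by role, with filled symbols for an adjusted p under 0.05 and names on the members and on genes with the widest changes. All 12 tested T-cell targets outside the members lie under 0, while coactivators, corepressors and trafficking genes lie on both sides. The lists were chosen with earlier results of these data known.

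Likeness of pattern was described by Pearson's r of log2(normalised count + 1) over the 16 libraries, which share lines and treatments. The gene most like DTX1 was C9orf91 (r = 0.994), followed by MYC (r = 0.993). The nearest to HES1 was TBL2 (r = 0.997), to NOTCH2 B4GALT1 (r = 0.994), to NOTCH3 FTX (r = 0.954) and to NOTCH1 CTD-2538C1.2 (r = 0.947). Among members, NOTCH3 and HES4 gave r = 0.920 and NOTCH1 and TRIB2 gave r = -0.909, while HES1 and DTX1, which fell together within each line, gave r = 0.031. These r values mix differences between lines with differences between arms.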

How the data were processed

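RNA from 3 T-ALL lines was sequenced in 16 libraries, and the deposited table gives a signal per gene and library in normalised read counts. In 15 columns 100% of nonzero values are whole multiples of 1 read step (tolerance 1e-06), so the authors divided whole reads by 1 factor per library; the step of CUTLL1 ASO 1 lies too near 1 to be checked. STAR 1.4.2, DESeq2 and hg19 are named, without roles, per the submitters' processing notes; the counter, annotation and use of strand are not given in the sources used, so reads of overlapping or antisense genes may be shared.

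Tests used limma 3.58.1 (R 4.3.3) on log2(normalised count + 1), with moderated variances that follow a trend with intensity, on genes whose mean reached 20 in the fitted libraries. Low genes change by more than this scale shows. An adjusted p (Benjamini-Hochberg over all genes tested) under 0.05 counted as passed. Pooled comparisons carried the line (guide, ASO) or the experiment (joint) as a term; 1 fit of 10 group means gave the single experiments, line differences and the contrast of guides with ASOs. Alternatives were a pseudocount of 5, other filters and scalings, the replicate block, leaving out each library, and edgeR 4.0.16 and DESeq2 1.42.0 on recovered reads of 15 libraries. The tests were tried on simulated data.

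Members, lists and tests were chosen with earlier results of these data known. Named were all 10 members, and from the pathway list the tested genes with the smallest joint p in each role (up to 2), plus MYC and IL7R (some genes this rule takes are not reported here); INSR, PFKFB3 and HSPA8 were chosen after their values were seen. Exon lengths come from a GENCODE annotation of GRCh38 and promoters from RefSeq GRCh38.p14, both matched by symbol.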

Additional observations from a re-analysis of the deposited data

Results flagged for a closer look

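The guide effect differed between CUTLL1, KOPTK1 and HPB-ALL for 8 of the 9 tested members, by limma's F test of the difference in a fit over all 16 libraries (43.7% of all genes tested also passed). For the receptors the F value was 56.7 for NOTCH1 (adjusted p = 4.02e-05) and 131.7 for NOTCH3 (adjusted p = 1.84e-06), with guide effects of opposite sign in CUTLL1 and the other lines. All 6 targeted guide libraries lay on the side of that sign for both genes, and the share of all genes that do so was not counted. RBPJ had an F of 13.2 (adjusted p = 0.00528), with effects between -0.17 in HPB-ALL and 0.22 in CUTLL1.

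Among the targets, TRIB2 had the highest F value, 106.2 (adjusted p = 3.82e-06), with guide effects of -1.10 in KOPTK1 and -0.12 in CUTLL1. DTX1 had an F of 39.6 (adjusted p = 0.000146) and HES1 an F of 10.8 (adjusted p = 0.00949), both with a fall in each line. HES4 had an F of 25.9 (adjusted p = 0.000614), from -0.16 in CUTLL1 to 1.23 in HPB-ALL.

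NRARP had the lowest of these values, F = 6.25 (adjusted p = 0.0382), and includes KOPTK1, where it is at 3 reads or fewer. It did not pass after quantile scaling (F = 5.46, adjusted p = 0.0514), nor without CUTLL1 guide 1 or 2, CUTLL1 ASO 1 or 2, HPB-ALL control 1 or 2, or HPB-ALL guide 1 or 2 (F from 4.03 to 5.57, adjusted p from 0.0579 to 0.11).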

How the results depend on the processing

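DTX1, HES1 and NOTCH2 kept their direction and passed in the guide, ASO and joint comparisons under every alternative run. The guide comparison had 1 member up instead of 2 without the KOPTK1 libraries (added after the data were seen) and 1 to 4 on leaving out single libraries. The ASO comparison had 2 up with DESeq2 (HES4 then passed at 0.52) and 1 to 4 up and 2 to 6 down on leaving out libraries. The joint comparison had 1 up without the KOPTK1 libraries and 2 to 4 on leaving out libraries, and NOTCH3 passed by DESeq2 (0.29; adjusted p = 0.0373) but not by edgeR (adjusted p = 0.0611). HPB-ALL minus KOPTK1 had 2 members up after quantile scaling and 1 to 2 up and 2 to 4 down (3 with all) on leaving out libraries, with HES1 lost without HPB-ALL control 2 or guide 2 (adjusted p = 0.0711 and 0.0641). KOPTK1 minus CUTLL1 had 1 to 2 down. Causes were not tested.

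Signs that changed belonged mostly to values that had not passed. RBPJ with ASOs was -0.014 with the replicate block, -0.018 by edgeR and -0.0091 by DESeq2. Without the KOPTK1 libraries the joint values were -0.042 for NOTCH1, -0.0039 for NOTCH3 and 0.024 for RBPJ, and the HES4 rise no longer passed (0.48 joint, 0.68 with guides). HES1, guides minus ASOs, was 0.011 after quantile scaling. On leaving out single libraries the values ran from -0.086 to 0.068 for that difference, from -0.11 to 0.016, -0.10 to 0.12 and -0.059 to 0.014 for RBPJ in the guide, ASO and joint comparisons, and from -0.091 to 0.048 for RBPJ in KOPTK1 with guides. With ASOs they ran from -0.27 to 0.56 for NOTCH1, -0.34 to 0.88 for NOTCH3, -1.98 to 0.00 for NRARP and -0.36 to 0.73 for DLL1. HES4 in CUTLL1 ran from -0.35 to 0.019 with guides and -0.047 to 0.052 with ASOs.

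Replicate numbers were shared by groups, but same-numbered HPB-ALL libraries did not deviate together (correlation -0.0056). This is 1 correlation in 1 line, so it cannot decide whether same-numbered libraries were paired. The other experiments had 1 control each, so pairing could not be examined there. With the replicate block 9188, 7301 and 10275 genes passed in the guide, ASO and joint comparisons, against 9519, 8913 and 10514 without it. The count test, edgeR on recovered reads, called 10045, 8388 and 10838. By edgeR, without CUTLL1 ASO 1, NRARP passed with ASOs (-2.04; adjusted p = 0.00148). Quantile scaling moved the median of all genes by about 0.1 on the log2 scale. A lone control cannot be left out of its own experiment's fit. Depth limits HEY1, and NRARP in KOPTK1.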
